A study of Homo sapiens with 6 samples.

Results

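In CAL62 cells, 10 matricellular genes were followed: the thrombospondins THBS1, THBS2, THBS3, THBS4 and COMP, tenascin C (TNC), SPARC, osteopontin (SPP1), periostin (POSTN) and TGFBI. They were taken as the rows of the deposited tables whose Ensembl identifiers map to these symbols, and all 10 were found, each on 1 row, among 39168 identifiers. THBS1 and TNC had been chosen by their measured values, namely their opposite changes between erianin and DMSO in these libraries, so their differences are given as a description without a test. CAL62 is an established human line of anaplastic thyroid carcinoma (ATC), wild type in genotype according to the labels. Erianin is a bibenzyl from Dendrobium orchids. The erianin group received 50 nM of it for 48 h, and the control group received the solvent DMSO for the same time, with 3 libraries in each group. Everything below therefore concerns a single cell line at 1 dose and 1 time.

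Matricellular proteins are secreted into the extracellular matrix, where they mainly modulate how cells attach, move and respond to growth factors, rather than building the scaffold itself. THBS1 and THBS2 carry thrombospondin type 1 repeats, bind the receptors CD36 and CD47 and are known as inhibitors of angiogenesis, whereas THBS3, THBS4 and COMP lack these repeats. TNC, a large protein that is scarce in most resting adult tissue, reappears in wounds and in tumor stroma, and it can weaken the adhesion of cells to fibronectin.

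Levels are given as CPM, counts scaled to a common library size, after TMM scaling, which corrects for differences in library composition, when a gene is compared between groups. They are given as TPM, the authors' values that also correct for gene length, when genes are compared with each other. The lengths used for the TPM values are not given in the sources used here and were not checked. Orders, ratios and shares between genes therefore hold for these TPM values only. Fold changes are log2 values of erianin over DMSO from edgeR's quasi-likelihood fit over 12821 genes, with their standard errors (SE). A gene other than THBS1 and TNC was called changed where its fold change exceeded 0.5 on the log2 scale in either direction and its p, adjusted by Benjamini-Hochberg over all genes, was under 0.05; both limits are those of the study.

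Counts on named genes ranged from 25776301 to 34107727 per library. DMSO replicate 3 stood apart. Its log2 CPM distance to the other DMSO libraries was 68.4 to 71.5, against 45.1 between DMSO replicates 1 and 2. Between erianin libraries the distance was at most 31.7. DMSO replicates 1 and 2 lay 63.5 to 70.2 from the erianin libraries, so DMSO replicate 3 was about as far from them as the treated libraries were. Members whose call changes without DMSO replicate 3 are given both ways. PAX8, a thyroid lineage factor, was abundant and fell with erianin (log2 fold change -0.66, SE 0.08, edgeR adjusted p = 0.00403), while TSHR and NKX2-1 were listed at 0 in all 6 libraries and TG had at most 13 counts. Epithelial markers (5 genes, mainly keratins) summed to 2312 to 3131 CPM with DMSO and 2520 to 2689 CPM with erianin. Of these 5, CDH1 had at most 9 counts in a library. Fibroblast and endothelial markers were near 0: the 5 fibroblast markers summed to 0.353 to 0.462 CPM with DMSO and 0.457 to 0.937 CPM with erianin (DCN at 0), and the 4 endothelial markers to 0.431 to 0.674 and 1.14 to 1.49 CPM. The endothelial sum was thus higher with erianin, although none of its genes was called and PECAM1 and CDH5 had at most 10 counts; its part in the results was not tested. In these bulk libraries, fewer cells making a transcript and less of it per cell cannot be told apart. The labels name the samples as replicates without saying that cultures were separate, so p-values measure the spread between libraries, which may be technical.

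TNC and SPARC made up nearly all of the members' RNA, and the gap between them was narrower with erianin. With DMSO, TNC stood at 259 ± 17.3 TPM and SPARC at 98.4 ± 3.13 TPM (mean ± SD, n = 3). THBS3 followed at 11.5 ± 2.55 TPM, THBS4 at 2.44 ± 0.534 TPM and THBS1 at 0.637 ± 0.148 TPM. TGFBI (0.222 ± 0.0240 TPM) and THBS2 (0.208 ± 0.112 TPM) overlapped between libraries, so their order was not resolved. SPP1 stood at 0.0218 ± 0.0189 TPM, and COMP and POSTN were listed at 0. With erianin the top of the order was the same, with TNC at 159 ± 7.61 TPM, SPARC at 119 ± 3.87 TPM and THBS3 at 10.3 ± 0.534 TPM. THBS1 then came before THBS4, at 2.79 ± 0.367 and 1.63 ± 0.409 TPM, and THBS2 before TGFBI, at 0.651 ± 0.0474 and 0.568 ± 0.00291 TPM. SPP1 (0.313 ± 0.0862 TPM), COMP (0.0321 ± 0.0278 TPM) and POSTN (0) were again the lowest. Every neighboring pair in the erianin order was separated in TPM in all libraries except COMP and POSTN. In counts, THBS2 was below TGFBI with erianin, at 41, 49 and 46 against 63, 65 and 64. The order of these genes thus rests on the lengths used for TPM and is not read as resolved.

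**Figure D1:**
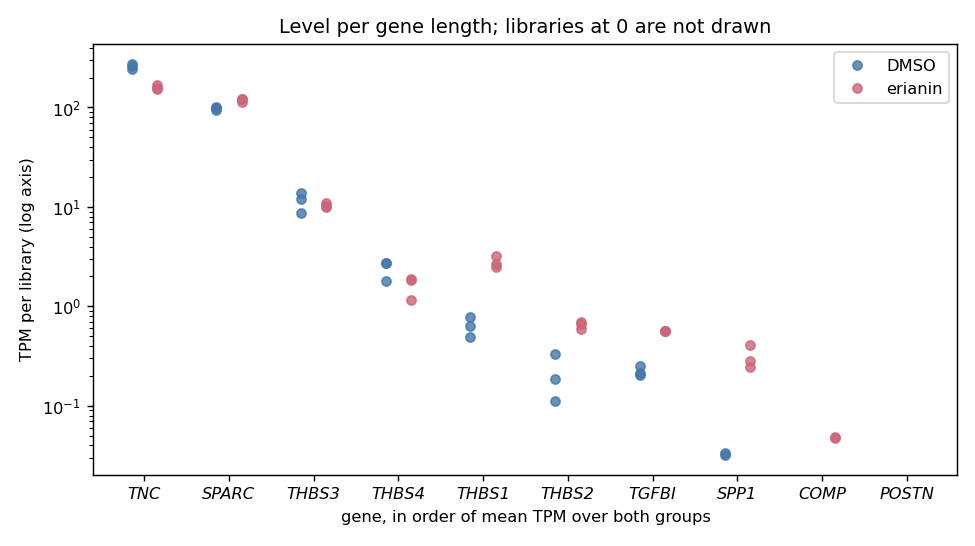
TPM of the 10 members in each library on a log axis, in order of mean TPM over both groups, with DMSO libraries in blue and erianin libraries in red; libraries at 0 are not drawn. TNC and SPARC lie far above the rest in both groups, and the erianin points of THBS1 lie above those of THBS4, the reverse of DMSO.

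THBS1, at chr15:39581079-39599466 on the plus strand of GRCh38 in GENCODE 29, and TNC, at chr9:115019578-115118257 on the minus strand, are the pair with opposite changes. The bases just before their transcription starts are shown because the members differ in the sequence around the start. The sequences are from RefSeq on GRCh38.p14, read 5′ to 3′ on the strand of the gene, with THBS1 from chr15:39580829-39581078 and TNC from chr9:115118258-115118407. Capitals mark matches, on either strand, to the motifs described beneath the sequences.

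THBS1: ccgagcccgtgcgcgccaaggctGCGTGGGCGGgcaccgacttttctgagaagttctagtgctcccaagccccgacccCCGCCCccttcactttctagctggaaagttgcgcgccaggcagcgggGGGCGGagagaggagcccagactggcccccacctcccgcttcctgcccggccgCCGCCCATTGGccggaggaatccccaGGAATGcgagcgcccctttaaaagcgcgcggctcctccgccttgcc

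TNC: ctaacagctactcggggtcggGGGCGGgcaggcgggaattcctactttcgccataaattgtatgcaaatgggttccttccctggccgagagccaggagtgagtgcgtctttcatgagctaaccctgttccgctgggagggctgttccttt

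For TNC, GENCODE 29 places the start 100 bases upstream of RefSeq, and only bases upstream of both starts are printed. In the 250 bases before the RefSeq start, THBS1 held 4 GC boxes (GGGCGG), the first of which overlaps a match to the EGR1-like GCGTGGGCG, as well as a CCAAT box (CCAAT) and the TEAD-like GGAATG. TNC held 1 GC box and, beginning 29 bases before the RefSeq start, the TATA-like TATANA. THBS2 also has TATANA beginning 29 bases before its start, with 2 matches to GGAATG, and no GC box in this window. Of 35116 RefSeq promoter windows of this length, 42.6% hold GGGCGG, 32.0% CCAAT, 17.7% TATANA, 11.9% GGAATG and 0.720% GCGTGGGCG. All 10 members had an entry, in 12 windows, and GCGTGGGCG occurred in THBS1 alone. The AP-1-like TGANTCA, present in 6.57% of windows, occurred only in POSTN. The motifs were picked with the sequences in view, and a match describes letters only.

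THBS1, the thrombospondin chosen for a higher value, carries type 1 repeats. It measured 0.985, 1.57 and 1.41 CPM in DMSO replicates 1, 2 and 3, and 5.80, 4.89 and 4.45 CPM in erianin replicates 1, 2 and 3. The lowest erianin library was thus well above the highest DMSO library, from 24 to 51 counts per library up to 156 to 198. The log2 fold change was 1.91 (SE 0.21), which is 3.77-fold. FSIP1, which overlaps THBS1 on the opposite strand, had 0 to 6 counts in any library.

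THBS2, the closest relative of THBS1, measured 0.739, 0.247 and 0.450 CPM with DMSO and 1.20, 1.40 and 1.31 CPM with erianin. The groups did not overlap, although the DMSO libraries spread from 8 to 18 counts. Of the DMSO libraries, 2 reached the level of the filter on low counts, as did all 3 erianin libraries. The DMSO libraries alone would not have brought THBS2 into the test. THBS2 rose with a log2 fold change of 1.49 (SE 0.36, edgeR adjusted p = 0.0335), and by 1.47 (adjusted p = 0.0340) in the fit without that filter. The call did not hold without DMSO replicate 2 (1.15, adjusted p = 0.0810) or without any 1 of the erianin libraries (adjusted p = 0.111 to 0.127); over all genes, 309 to 328 were called in those 3 fits against 1119 with all libraries. The gene lies at chr6:169215780-169254044 on the minus strand.

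THBS3, the most abundant thrombospondin, has no type 1 repeats. It measured 38.9, 43.5 and 30.4 CPM with DMSO and 31.4, 29.4 and 28.1 CPM with erianin. DMSO replicate 3 lay among the erianin libraries. THBS3 did not pass the test (log2 fold change -0.34, SE 0.14, edgeR adjusted p = 0.143), and without DMSO replicate 3 the value was -0.48 with an adjusted p of 5.91e-07, still inside the fold threshold. MTX1, which overlaps THBS3 on the opposite strand, had a log2 fold change of -0.19 (edgeR adjusted p = 0.388). Without DMSO replicate 3 the value of MTX1 was -0.34 (edgeR adjusted p = 2.34e-05). The strand setting of the counting is not given in the sources used here, and the part of MTX1 in the THBS3 counts was not tested.

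THBS4, a thrombospondin of tendon, muscle and neural tissue, measured 4.31, 4.28 and 3.11 CPM with DMSO and 2.58, 2.69 and 1.60 CPM with erianin. All erianin libraries were below all DMSO libraries, but the log2 fold change of -0.77 (SE 0.24) did not pass the test (edgeR adjusted p = 0.0746). Without DMSO replicate 3, a fit that called 17.5% of all genes in either direction, THBS4 was called lower (-0.91, edgeR adjusted p = 0.000276), as it was with DESeq2 on all 6 libraries (-0.78, adjusted p = 0.0363). COMP, the cartilage oligomeric matrix protein, had 0 counts in the DMSO libraries and 2, 2 and 0 counts in the erianin libraries and was too low to test.

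Summed over the 5 genes in TPM, thrombospondin RNA differed by less than the spread between libraries. The sum was 14.8 ± 3.09 TPM with DMSO and 15.4 ± 1.18 TPM with erianin (SD, n = 3). The TPM columns held 59.1% of their nominal total in DMSO replicate 3 and 78.3% in erianin replicate 3. The median of all genes was shifted upward by 0.18 on log2(TPM + 1), so no direction is read from this sum. In CPM, THBS3 averaged 37.6 with DMSO and 29.6 with erianin. The CPM mean of THBS4 was also lower with erianin, while those of THBS1, THBS2 and COMP were higher. The composition of the TPM sum differed. THBS1 made up 4.42 ± 1.28% of the sum with DMSO and 18.0 ± 1.07% with erianin, and THBS3 77.7 ± 1.19% and 67.1 ± 2.32%. Since THBS1 was chosen for its change, these shares describe the libraries and were not tested.

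TNC was the member with the highest level and the one chosen for a lower value. It measured 1906, 2022 and 1939.9 CPM with DMSO and 1029.8, 1119.9 and 995 CPM with erianin, from 34863 to 65622 counts per library. The groups were far apart compared with their spread (1956 ± 59.7 and 1048 ± 64.3 CPM, SD, n = 3), and the log2 fold change was -0.90 (SE 0.08), or 1.87-fold lower. On the log2(TPM + 1) scale the difference was smaller, at -0.70. On the TPM scale the median of all genes was shifted upward by 0.18, while with TMM scaling it was at 0.00. The ratio of TNC to THBS1 in TPM was 353 to 531 in the DMSO libraries and 48.8 to 62.8 in the erianin libraries. TNC also overlaps DEC1 on the opposite strand, which was not analysed here.

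**Figure D2:**
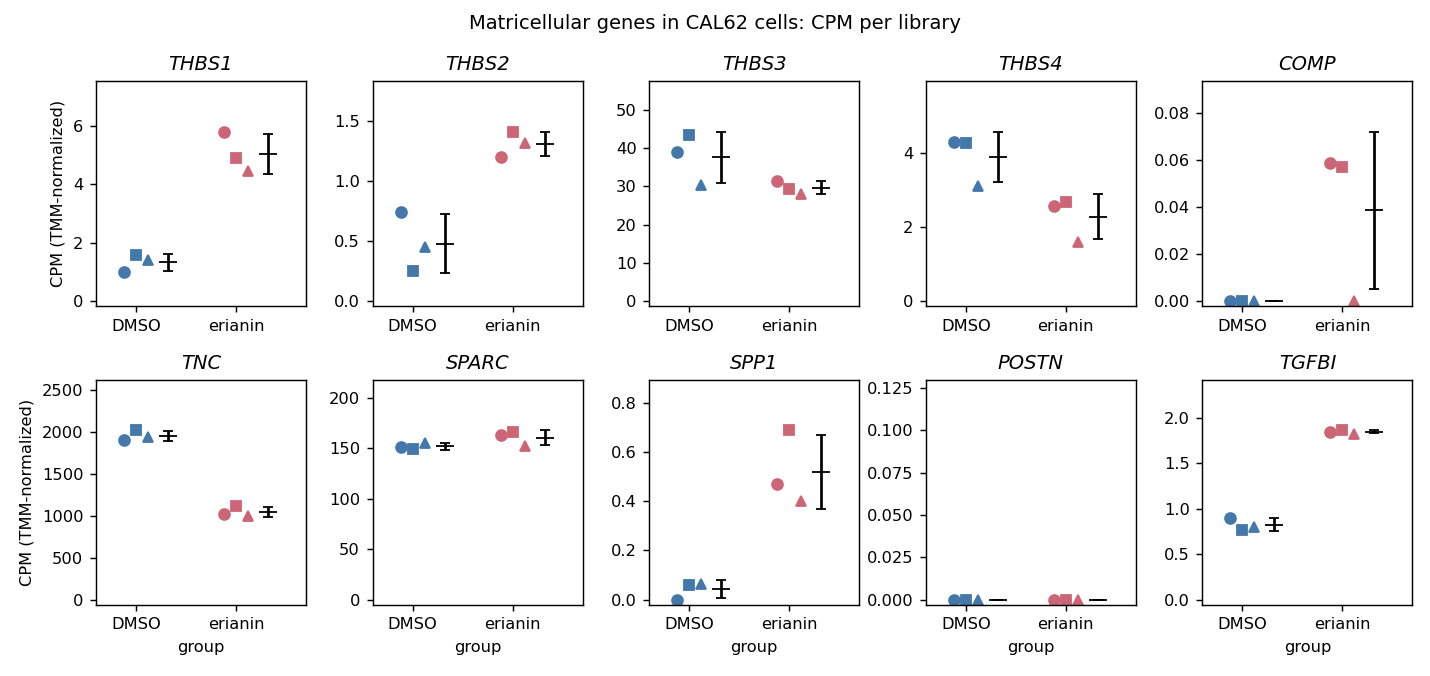
CPM of each member in each library, with circles, squares and triangles for replicates 1, 2 and 3 and a bar for the mean and SD of the group. The groups are apart for THBS1, THBS2, THBS4, TNC, SPP1 and TGFBI, they overlap for THBS3 and SPARC, and COMP and POSTN are at or near 0; each panel has its own linear axis.

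SPARC, a calcium-binding protein that binds collagen and counteracts cell spreading, showed no called change. It measured 151, 149 and 155 CPM with DMSO and 163, 166 and 152 CPM with erianin, so that erianin replicate 3 lay inside the DMSO range. The log2 fold change was 0.08 (SE 0.07, edgeR adjusted p = 0.480). On the TPM scales it was 0.27 to 0.28 with limma adjusted p from 0.0276 to 0.0373, under the fold threshold and on a scale whose median of all genes was itself shifted upward by 0.12 to 0.20. The ratio of TNC to SPARC in TPM was 2.63 ± 0.118 with DMSO and 1.34 ± 0.0446 with erianin (SD, n = 3). SPARC accounted for 26.4% of the members' summed TPM with DMSO and 40.5% with erianin, and TNC for 69.5% and 54.0%.

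SPP1, or osteopontin, is a secreted phosphoprotein that binds integrins and CD44. It had 0, 2 and 2 counts in DMSO replicates 1, 2 and 3 and 16, 24 and 14 counts in erianin replicates 1, 2 and 3, corresponding to at most 0.0642 CPM with DMSO and 0.400 to 0.687 CPM with erianin. SPP1 entered the test only through the erianin libraries. It rose (fitted log2 fold change 3.41, SE 0.62, edgeR adjusted p = 0.0134, and 3.40 with 0.0153 in the fit without a low-count filter), and the ratio of the summed CPM was 11.4 with an exact 95% interval of 4.21 to 43.4. Low counts in these libraries often came in twos: 64.4 to 69.5% of genes with 1 to 20 counts had an even count, against 50.1 to 52.6% of genes above 100 counts. If each such count of 2 is taken as 1 observation, the interval widens to 2.87 to 99.0. These intervals cover counting error only. The call was lost without any 1 of the erianin libraries (edgeR adjusted p = 0.0549 to 0.0674).

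TGFBI and POSTN are related secreted proteins with fasciclin domains that bind integrins. TGFBI, named for its induction by TGF-beta, measured 0.903, 0.770 and 0.803 CPM with DMSO and 1.84, 1.86 and 1.83 CPM with erianin. Its libraries were tight in both groups and did not overlap, and TGFBI rose (log2 fold change 1.16, SE 0.20, edgeR adjusted p = 0.0107). The call was lost without any 1 of the erianin libraries (adjusted p = 0.0616 to 0.0626) at nearly the same fold. POSTN had 0 counts in all 6 libraries, and the limit of 3 counts that a count of 0 allows corresponds to 0.0857 to 0.123 CPM depending on the library, so no difference was detectable at this depth.

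In all, 8 of the 10 members passed the filter on low counts. SPP1 passed only through the erianin libraries, and THBS2 would not have passed through the DMSO libraries alone. Of the 6 that were tested, THBS2, SPP1 and TGFBI were called higher and none lower. Over all genes 8.73% were called in either direction, 5.37% higher and 3.36% lower. Nothing is read from the members' count, since the filter let in SPP1, and in part THBS2, through the group where they were high. DESeq2 called THBS4 lower in addition to these 3, with 9.07% of all genes called in either direction. Groups that did not overlap in CPM, as in 38.7% of all tested genes, were seen for THBS4 and TGFBI, for the chosen THBS1 and TNC, and for THBS2 and SPP1. The 3 called members share a low level, under 2 CPM on average. Of the 1968 tested genes in that range, 11.2% were called higher and 0.457% lower, and their median log2 fold change was 0.31 where that of all genes was 0.00. These members thus moved in the direction that was the common one at their level, and the part of the level in their calls was not tested.

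**Figure D3:**
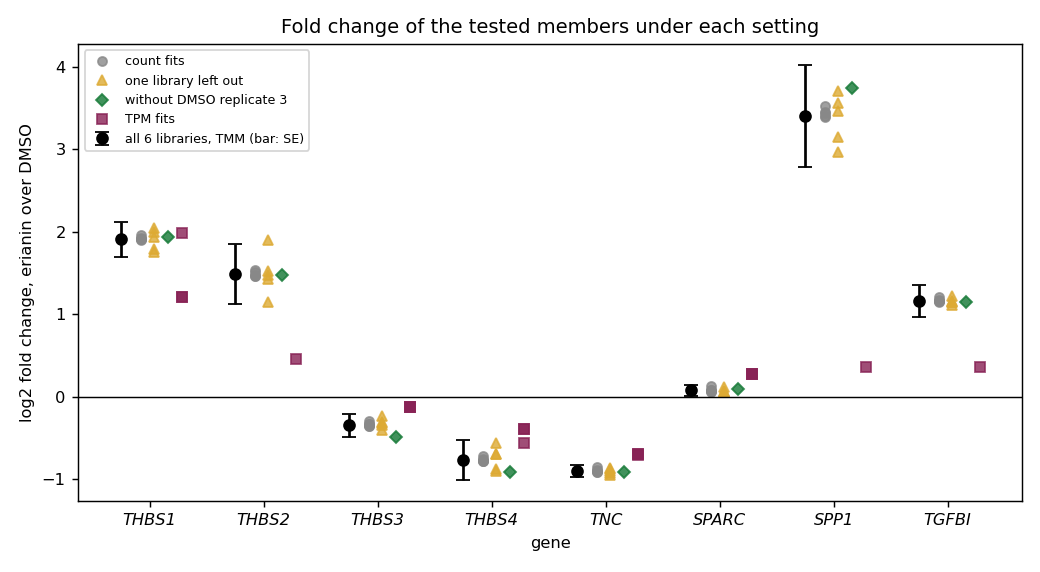
Log2 fold change of each tested member under the settings that could be run for it: all 6 libraries with TMM scaling (black, bar: SE), other count fits (grey), fits with 1 library left out (yellow, and green for DMSO replicate 3) and fits on TPM (purple). THBS2 and SPP1 have no value with a minimum of 10 counts, and these 2 and TGFBI have none on the filtered TPM scales. No member changes sign among the values drawn, and the TPM values of THBS2, SPP1 and TGFBI lie at 0.36 to 0.45, on a scale whose pseudocount of 1 exceeds their TPM in every library.

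By the root mean square (RMS) difference of centered log2 CPM over the 6 libraries, among 8470 genes with a mean of at least 10 CPM, the pattern most like that of THBS1 was shown by LCP1 (RMS 0.121 on the log2 scale), which encodes the actin-bundling protein L-plastin. MMP1, an interstitial collagenase, and HSPA5, the chaperone BiP of the endoplasmic reticulum, came next at 0.223 and 0.256. LCP1 averaged 4.28 CPM with DMSO and 18.3 CPM with erianin, MMP1 3.78 and 17.5 CPM, and HSPA5 996 and 3311 CPM. The pattern most like that of TNC was shown by WWC3 (RMS 0.0372), THSD4 (0.0463) and ARPIN (0.0562). THSD4, a matrix protein of microfibrils with type 1 repeats, averaged 226 CPM with DMSO and 121 CPM with erianin, and ARPIN, an inhibitor of the Arp2/3 complex, 78.4 and 39.9 CPM. With 6 libraries in 2 groups, these distances mainly reflect how similar the group differences are.

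Of 23 receptor genes, 16 were tested, 2 were called lower and none higher, beside 8.73% called over all genes, and the median log2 fold change was -0.23. ITGA3, the alpha subunit of a laminin-binding integrin that also binds THBS1, measured 1836, 1979 and 1653 CPM with DMSO and 1220.4, 1271.6 and 1203.1 CPM with erianin, with no overlap. ITGA3 fell with a log2 fold change of -0.57 (SE 0.09, edgeR adjusted p = 0.00766). EGFR, to which repeats of TNC can bind, was called lower as well (-0.59, SE 0.12, adjusted p = 0.0188), but without DMSO replicate 3, the DMSO library with the highest EGFR level, the value was -0.44, inside the fold threshold. Both calls were lost without any 1 of the erianin libraries, with adjusted p of 0.0524 to 0.0579 for ITGA3 and 0.0842 to 0.0987 for EGFR. ANXA2, CALR and ITGB1 were the most abundant of the receptors without a call, with log2 fold changes of 0.21, 0.21 and -0.22 (edgeR adjusted p = 0.116, 0.0972 and 0.317). CD36, the angiogenesis-related THBS1 receptor, had at most 2 counts in a library, while CD47 measured 54.9 ± 1.77 CPM with DMSO and 53.1 ± 5.89 CPM with erianin (SD, n = 3). STAB1, a receptor that takes up SPARC, was below the filter with all libraries and was called higher by DESeq2, without the filter and without DMSO replicate 3, from 0 counts in each DMSO library to 18, 5 and 11 counts. The fit without DMSO replicate 3 called 17.5% of all genes in either direction, and STAB1 entered it only through the erianin libraries, so nothing is read from that call.

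Of 18 partners and proteases, 15 were tested, 3 were called higher and 2 lower, beside 8.73% over all genes, with a median log2 fold change of -0.05. Nothing is read from this count, since the filter let in MMP3 through the group where it was high. Fibronectin (FN1), the adhesive protein that TNC binds, measured 5366, 5272 and 6813 CPM with DMSO and 3329.6, 3617.2 and 3111.5 CPM with erianin. FN1 fell (log2 fold change -0.80, SE 0.12, edgeR adjusted p = 0.00761). HTRA1, a secreted serine protease that cleaves fibronectin, fell by 0.74 on the log2 scale (SE 0.09, adjusted p = 0.00400). FGF2, a growth factor whose activity THBS1 restrains, rose (0.63, SE 0.10, adjusted p = 0.00806). ADAMTS1, a metalloprotease that can cleave THBS1 and THBS2, rose from 30.0 ± 4.89 to 56.0 ± 3.24 CPM (0.90, SE 0.13, adjusted p = 0.00684). MMP3, a stromelysin, went from 0, 2 and 0 counts to 32, 26 and 22 counts, a ratio of 33.8 (exact 95% interval 9.05 to 284, or 5.73 to 1368 with counts of 2 taken as 1 observation, for counting error only). It entered the test only through the erianin libraries and rose with a fitted log2 fold change of 4.86 (SE 0.68, adjusted p = 0.00611; 4.85 and 0.00445 without the low-count filter). The fitted value was 7.62 without DMSO replicate 2 and 4.31 without DMSO replicate 3. MMP14, TGFB1 and HSPG2 were the most abundant without a call (-0.33, -0.05 and -0.27). Without 1 erianin library, the calls of MMP3 and HTRA1 held, that of FGF2 was lost in each case (adjusted p = 0.0525 to 0.0612), that of FN1 without replicate 1 or 3 (0.0550 and 0.0559) and that of ADAMTS1 without replicate 2 (0.0519).

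Among 5 enzymes that modify these proteins, all tested, only FAM20C was called, beside 8.73% of all genes called in either direction. FAM20C, the kinase that phosphorylates secreted proteins including osteopontin, measured 30.8, 29.1 and 23.7 CPM with DMSO and 14.1, 16.6 and 13.0 CPM with erianin, and it fell by 0.94 on the log2 scale (SE 0.14, edgeR adjusted p = 0.00787). The enzymes that add sugars to thrombospondin type 1 repeats did not pass: POFUT2 had a log2 fold change of 0.18 (edgeR adjusted p = 0.236), DPY19L1 of -0.03 (adjusted p = 0.884) and DPY19L3 of -0.41 (adjusted p = 0.0767). The median over the 5 enzymes was -0.03. The call of FAM20C was lost without erianin replicate 1 or 3 (adjusted p = 0.0559 and 0.0561).

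Of 28 other genes with type 1 repeats, 27 had a row and 15 were tested, 2 were called higher and 2 lower, with a median log2 fold change of 0.30. THSD4 fell (-0.91, SE 0.07, edgeR adjusted p = 0.00102), and ADGRB1, the adhesion receptor BAI1, fell from 220 ± 18.3 to 117 ± 2.36 CPM (-0.91, SE 0.08, adjusted p = 0.00143). ADAMTS1 rose as given above, and ADAMTSL4, a microfibril-binding protein, rose from 8.48 ± 0.608 to 12.5 ± 0.908 CPM (0.56, SE 0.12, adjusted p = 0.0201). The call of ADAMTSL4 was lost without DMSO replicate 1 (adjusted p = 0.0681) or any 1 of the erianin libraries (0.0774 to 0.103), while those of THSD4 and ADGRB1 held without any 1 library. RSPO4 (-0.47) and ADAMTS12 (0.45) passed the p threshold but not the fold threshold, and ADAMTS6 had a value of 0.05. The share called over all genes was 8.73%.

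Of 25 other matricellular genes, 12 were tested, 1 was called higher and none lower, a share near the 8.73% of all genes, with a median log2 fold change of 0.32. Nothing is read from this count, since the filter let in the called gene through the group where it was high. SPOCK2, a testican that belongs to the wider SPARC family, went from 0, 6 and 2 counts with DMSO to 26, 31 and 20 counts with erianin and entered the test only through the latter. It rose (fitted log2 fold change 2.98, SE 0.61, edgeR adjusted p = 0.0192; 2.97 and 0.0188 without the low-count filter), with a value of 4.22 without DMSO replicate 2 and a call that was lost without any 1 of the erianin libraries (adjusted p = 0.0689 to 0.0901). The most abundant was FSTL1, another relative of SPARC, at 279 ± 1.75 and 271 ± 11.4 CPM (log2 fold change -0.05, adjusted p = 0.689). EFEMP2 had a value of -0.29 (adjusted p = 0.0449), inside the fold threshold, and ECM1 of 0.42 (adjusted p = 0.175), which was 0.67 (edgeR adjusted p = 2.38e-09) without DMSO replicate 3. Of the other list genes without a call, SPOCK1 (0.51), TGFB3 (1.18), MMP9 (1.25), SPON2 (1.52) and ADAMTS4 (0 counts in each DMSO library and 4, 14 and 20 counts with erianin) were called higher in that fit. That fit called 17.5% of all genes in either direction, and SPON2 and ADAMTS4 entered it only through the erianin libraries, so nothing is read from these calls. CCN1 to CCN6, with TNR and MEPE, made up the 8 of the 25 that were listed at 0 in every library. The symbols of these 6 CCN genes have changed since GENCODE 29. Among 639 protein-coding rows with a changed symbol, 534 (83.6%) were listed at 0, against 2922 of 18480 (15.8%) with an unchanged one, so no level is given for the CCN genes. None of the 10 members has changed its symbol. SPOCK2 and MMP3 lie under 2 CPM, the range in which calls were mostly higher.

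**Figure D4:**
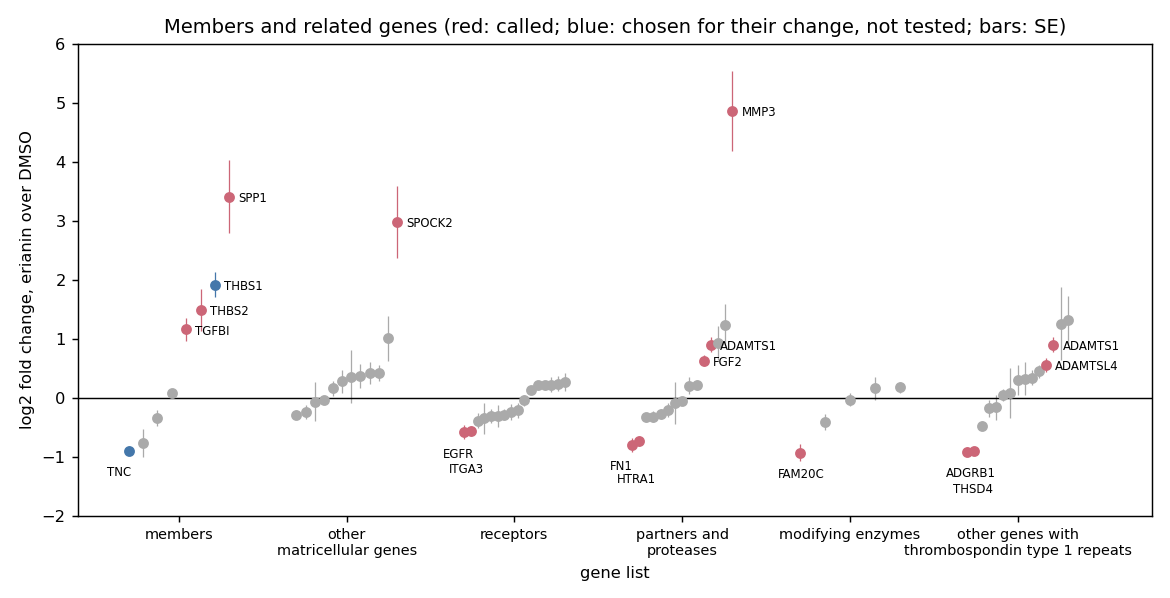
Log2 fold change of erianin over DMSO for the tested members and the tested genes of 5 related lists, with SE bars; red points were called, blue points are THBS1 and TNC, which were chosen for their change and not tested, and grey points were not called. Both called receptors are lower, whereas the partners and proteases hold called genes on both sides of 0, with MMP3 the highest point of all the lists.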

How the data were processed

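The authors sequenced RNA of CAL62 cells on the BGISEQ-500 and deposited raw read counts per gene, which were used for all tests. The authors also deposited TPM values, used for levels between genes and as alternatives; the TPM columns sum to 59.1 to 78.3% of their nominal total. The submitters' processing notes name fastp 0.23.2, STAR 2.7.10, featureCounts 2.0.1, StringTie 2.2.1 and GRCh38; the annotation and strand setting are not given in the sources used here. Rows without a gene identifier (26480 of 65807, up to 0.00515% of counts) were left out. Counts were fitted with edgeR 4.0.16 in R 4.3.3 (TMM, filterByExpr, glmQLFit and glmQLFTest, no replicate term, 3 against 3 libraries), with Benjamini-Hochberg adjustment over all 12821 genes that passed the filter. SEs came from the F statistic of that test. The members and gene lists were chosen with earlier results of these data known. Besides the members, the called genes of each list and up to 3 further genes in order of mean CPM were named. The 3 genes most like THBS1 and like TNC were named as well. STAB1, SPOCK1, TGFB3, MMP9, SPON2, ADAMTS4, CD36, CD47, the CCN genes, overlapping genes, PAX8 and CDH1 were named after their values were seen. Alternatives were DESeq2 1.42.0, RLE and upper-quartile factors, no low-count filter, a minimum of 10 counts in each library, limma 3.58.1 on log2(TPM + 1) and log2(TPM + 0.1), the replicate number as a block, and each library left out in turn. The steps were tested on simulated counts. Some marker genes are not reported here. Coordinates came from GENCODE 29, upstream sequences from RefSeq.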

Additional observations from a re-analysis of the deposited data

How the results depend on the processing

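No tested member changed direction under the alternatives run for it: 15 in general, 13 for TGFBI and 12 for THBS2 and SPP1, which the filters on TPM and on 10 counts remove. The number of genes called in all, 1119, was 309 to 2282 with 1 library left out, the largest without DMSO replicate 3. Of the members other than THBS1 and TNC, 3 were called, but 0 to 4 with 1 library left out, 1 with a minimum of 10 counts in each library (which THBS2 and SPP1 did not pass) and 0 on each of the 3 TPM scales. On the filtered TPM scales THBS2, SPP1 and TGFBI were not tested, and on log2(TPM + 1) without a filter they passed the p threshold (0.0225, 0.0181 and 0.00884) but not the fold threshold. THBS1 stood at 1.21 on log2(TPM + 1) with and without the filter, at 1.98 on log2(TPM + 0.1) and at 1.75 to 2.05 with 1 library left out. TNC stood at -0.70 on all 3 TPM scales and at -0.95 to -0.86 with 1 library left out.

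Of the other matricellular genes 1 was called, and 0 with the same minimum of 10 counts, 2 on log2(TPM + 0.1), 0 on log2(TPM + 1) without a filter and 0 to 3 with 1 library left out. Of the receptors 2 were called, 0 on all 3 TPM scales and 0 to 2 with 1 library left out. With 1 library left out, the partners and proteases had 3 to 7 calls against 5, the modifying enzymes 0 to 1 against 1, and the other genes with type 1 repeats 2 to 6 against 4. The split of all calls was 688 higher and 431 lower; it was 822 and 299 with upper-quartile factors and 1098 and 94 on log2(TPM + 1), scales on which the median of all genes was shifted by 0.05 and 0.18.

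Libraries with the same number were not paired by it: their deviations correlated at 0.00143, 0.0364 and -0.0284. With the replicate number as a block, 665 genes were called in all, 1 member (SPP1, adjusted p = 0.0448), 0 other matricellular genes and 1 receptor. SPP1, THBS2, TGFBI and COMP are limited by depth, at no more than 65 counts in any library.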
